A study of Arabidopsis thaliana with 12 samples.

Results

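The effect of losing the chromatin remodeler BRM was compared in plants with and without the H3K27 methyltransferase CLF, to find genes whose level in the double mutant departed from the sum of the single-mutant changes. The genes described were the 6678 of 13356 whose mean over all 12 arrays lay above the median of all genes (7.13 on the log2 scale). The limit was set without genotype labels, but a gene can pass it through the genotypes in which it is high. At that limit, AT3G55350 lay just inside with a mean of 7.127 and a contrast of -0.25, and AT1G18810 just outside with 7.125 and a contrast of 0.20.

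Transcripts of whole Arabidopsis thaliana seedlings at 14 days, grown at 22 °C with 16 h of light and 8 h of dark, were measured on Affymetrix ATH1 arrays. There were 4 genotypes with 3 arrays each, which the labels call biological replicates: wild-type Col, the single mutants brm-1 and clf-29, and their double mutant (brm-1 clf-29). All were in the Col background, brm-1 is a null T-DNA allele and clf-29 a T-DNA allele, and each gene was represented by a single allele, so allele and gene cannot be told apart. Values are log2 MAS5 signals, and genotype means are given with the SD over 3 arrays. Differences between genotypes and contrasts are given with the SE of the fit. The small number of arrays limits the precision of both. In RNA of whole seedlings, fewer cells of a type and less RNA per cell cannot be told apart. The transcripts of BRM and CLF themselves were not analysed here, so each genotype is taken from its label alone.

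BRM is the ATPase of a SWI/SNF complex, which moves or evicts nucleosomes with the energy of ATP and counts among the Trithorax group proteins that keep genes active. CLF is a catalytic subunit of Polycomb repressive complex PRC2, which places trimethylation on lysine 27 of histone H3 and keeps genes silent, and another methyltransferase, SWN, shares part of its work. The study reports that BRM mainly acts against PRC2, and proposes that it also works with Polycomb proteins at some genes. The comparison asks whether a change with loss of BRM is erased, kept or enlarged when CLF is lost as well.

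The contrast, (brm-1 clf-29 minus clf-29) minus (brm-1 minus Col), is 0 where log2 changes add up. Additivity on the linear signal scale was not tested, and a departure on one scale need not be one on the other. A value above 0 means that the double mutant lay above the additive expectation, which is the level of Col plus both single-mutant differences. The genotype patterns were sorted by a limit of 1.5-fold (0.58 in log2). Masking means that the double mutant was past the limit but nearer to Col than the additive sum, rescue that it was within the limit although at least 1 single mutant was past it, and synergy that it lay farther out than the sum. Reversal means that it lay past the limit on the other side of Col from the single mutants, opposed that the double mutant was past the limit and the single mutants lay past it on different sides, and small that no genotype was past the limit. Both single-mutant differences were taken from the same 3 Col arrays, so an error in the Col mean moves them together.

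Replicate 3 stood apart in all genotypes. On the first principal component (30.9% of the variance) its 4 arrays lay between 12.16 and 22.25 and the other 8 between -21.44 and 5.76, and the fit therefore held a term for replicate 3. The array medians lay between 7.54 and 7.66, and the leaf photosynthesis genes RCA, PSAN and LHCB4.1 between 13.55 and 14.69 on every array. Of the floral identity genes UFO was the one analysed here, between 0.72 and 5.52, and seed markers were not analysed here.

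Departures from additivity passed the threshold for 4 of the 6678 genes. The defence genes AT5G52810 and RING1 were lowered in both single mutants without the decreases adding up. The peroxidase gene AT2G41480 was raised in both and highest in the double mutant, by less than the sum of the log2 increases. AT3G05730 was lowered in clf-29 alone and stood near the Col level in the double mutant. The call was an adjusted p under 0.05 in limma over all 13356 genes, which 0.0299% of them passed, 3 with a contrast above 0 (0.0225%) and 1 with a contrast below 0 (0.00749%). With the replicate number as a block the count was 0 (46 genes at an unadjusted p under 0.001), without the term for replicate 3 it was 0 (13 genes), and over the arrays left out in turn it ranged from 0 to 29. The contrasts of the 4 genes kept their direction under each of 22 other settings. These settings reuse all or most of the arrays that chose the genes, so the direction is not independent of the choice. The call itself was lost in 17 of the 22 settings for AT2G41480 and AT3G05730, and in 16 for AT5G52810 and RING1.

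**Figure D1:**
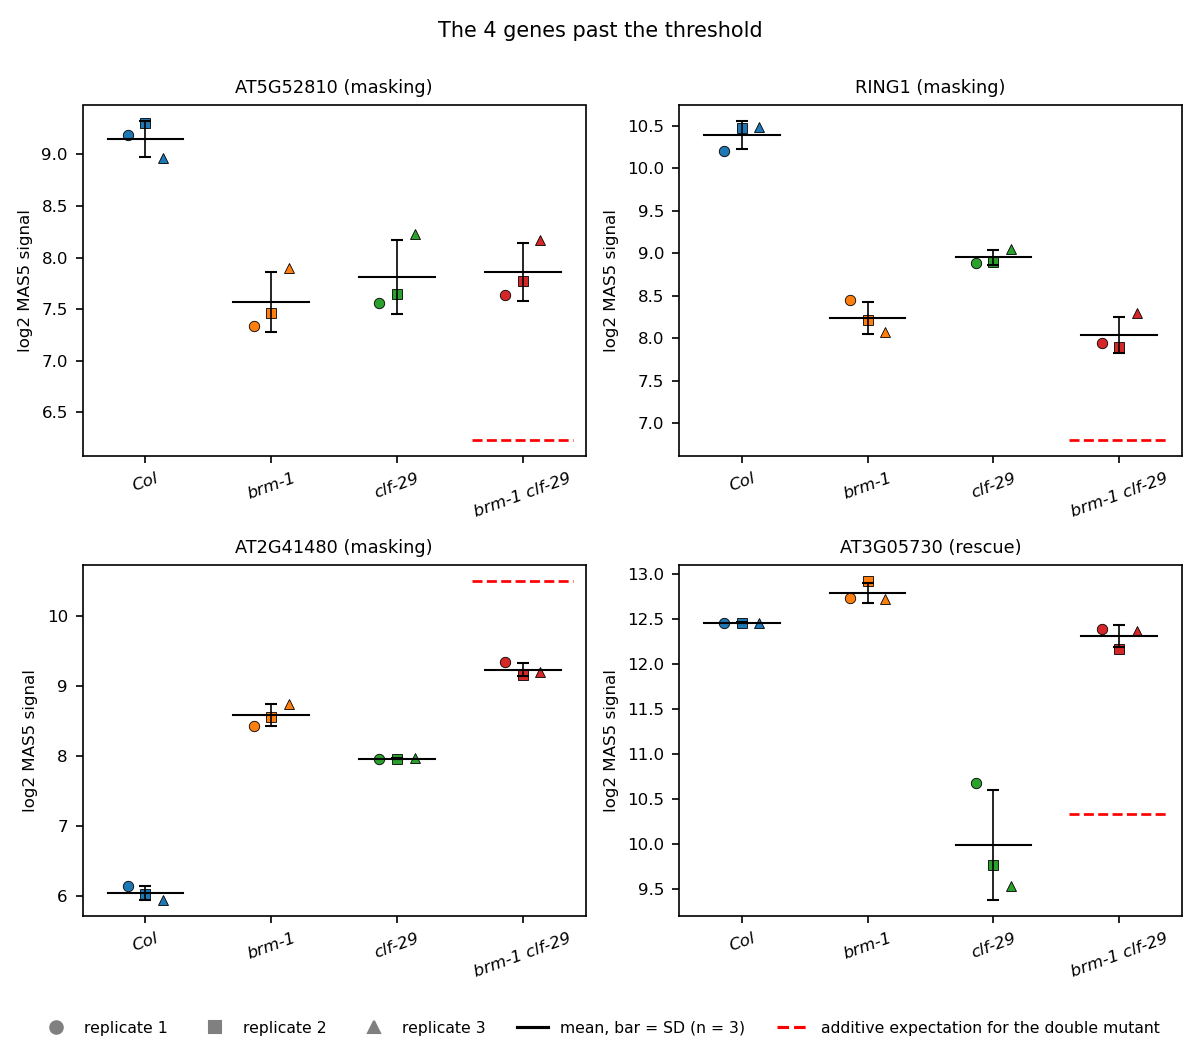
Log2 MAS5 signal of AT5G52810, RING1, AT2G41480 and AT3G05730 on each of the 12 arrays, with the mean and SD of each genotype (n = 3) and the additive expectation as a dashed line. The double mutant lies above the line for AT5G52810, RING1 and AT3G05730 and below it for AT2G41480.

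AT5G52810 (SARD4) encodes a reductase of pipecolic acid synthesis, which is needed for systemic acquired resistance. Its levels were 9.19, 9.30 and 8.97 in Col, 7.34, 7.46 and 7.90 in brm-1, 7.56, 7.65 and 8.23 in clf-29, and 7.64, 7.77 and 8.17 in brm-1 clf-29. Every mutant array lay below every Col array, and the 3 mutant genotypes overlapped. With loss of BRM it fell by 1.59 ± 0.17 in the Col background (SE, adjusted p = 0.000114), while the difference in clf-29 was 0.05 ± 0.17 (adjusted p = 0.943). The double mutant lay 1.63 ± 0.24 (SE, adjusted p = 0.0366) above the additive expectation of 6.23, or 3.1-fold.

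RING1 (AT5G10380) encodes a RING ubiquitin ligase that promotes cell death in defence, and is not the Polycomb protein of similar name. It measured 10.20, 10.47 and 10.49 in Col, 8.45, 8.21 and 8.07 in brm-1, 8.89, 8.90 and 9.05 in clf-29, and 7.94, 7.90 and 8.29 in the double mutant. Col stood above all mutants, clf-29 was intermediate, and brm-1 and the double mutant overlapped. With loss of BRM it fell by 2.14 ± 0.13 in the Col background (adjusted p = 1.77e-06) and fell by 0.90 ± 0.13 in clf-29 (adjusted p = 0.00132). The contrast was 1.24 ± 0.18 (SE, adjusted p = 0.0366), with the double mutant 2.36-fold above the additive expectation of 6.80.

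AT2G41480 encodes the class III peroxidase PRX25. Levels were 6.15, 6.04 and 5.95 in Col, 8.43, 8.56 and 8.74 in brm-1, 7.95, 7.95 and 7.97 in clf-29, and 9.34, 9.16 and 9.20 in brm-1 clf-29. No genotype overlapped another, and the order Col, clf-29, brm-1, double mutant held for every array. The Col mean of 6.05 lay under the limit on level of 7.13, so the gene passed that limit through the mutants. It was not called when all 4 genotype means had to lie above the median. Loss of BRM raised it by 2.53 ± 0.12 in the Col background (adjusted p = 2.83e-07) and by 1.28 ± 0.12 in clf-29 (adjusted p = 6.46e-05). Loss of CLF raised it in limma by 1.91 ± 0.12 in the Col background (adjusted p = 6.91e-06) and by 0.66 ± 0.12 in brm-1 (adjusted p = 0.0187). On the log2 scale the sum of the single changes would have put the double mutant at 10.49. The measured mean of 9.23 missed that sum by -1.25 ± 0.18 (SE, adjusted p = 0.0366). The call speaks for the log2 scale only, since addition of the linear signals was not tested.

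AT3G05730, which encodes a defensin-like peptide, was the single called gene with a rescue pattern. It stood at 12.45, 12.46 and 12.46 in Col, 12.73, 12.92 and 12.72 in brm-1, 10.68, 9.77 and 9.53 in clf-29, and 12.39, 12.17 and 12.37 in the double mutant. The clf-29 arrays lay far under all the others, and the double mutant lay just under Col without overlap. With loss of CLF it fell by 2.46 ± 0.20 in the Col background (adjusted p = 2.07e-05), while the difference of -0.48 ± 0.20 in brm-1 did not pass (adjusted p = 0.279). The contrast of 1.98 ± 0.28 (SE, adjusted p = 0.0366) put the double mutant 3.95-fold above the additive expectation of 10.33. The contrast was 1.69 in replicates 1 and 2 and 2.58 in replicate 3, but both sets of arrays were used to call the gene.

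Most genes stayed near additivity. The quartiles of the contrast were -0.14 and 0.19, with a median of 0.03 and a range from -2.02 to 2.36, and 3647 of the 6678 genes (54.6%) had a contrast above 0. A departure of at least 1.5-fold from the additive expectation was measured for 343 genes (5.14%) and of at least 2-fold for 68 (1.02%). For 3373 genes (50.5%) the whole 95% interval of the contrast lay within 1.5-fold of additivity, and for the rest the precision (median SE 0.18, median half-width 0.40) left a larger departure possible. An unadjusted p under 0.05 was reached by 808 genes (12.1%).

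Among the 6678 genes, 5569 (83.4%) were small, 487 (7.29%) masking, 323 (4.84%) synergy, 280 (4.19%) rescue, 11 (0.165%) opposed and 8 (0.120%) reversal. These counts describe means and include genes whose contrast was close to 0, since every sum that is not met exactly falls to one side. In 124 of the masking genes both single mutants were past the limit, lower than Col in 56 of them, and in 28 of the 124 the double mutant lay nearer to Col than the farther single mutant. Of the rescue genes, 143 were past the limit in brm-1 alone, 116 in clf-29 alone and 21 in both. With a limit of 2-fold there were 167 masking, 100 synergy and 73 rescue genes, and none in the opposed or reversal classes. At either limit, a gene whose double mutant was within it counted as rescue if a single mutant was past it, and otherwise as small.

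The strongest departures are given by an unadjusted p under 0.001, a list chosen after its values were seen. It held 52 of the 6678 genes (0.779%), 29 with a contrast above 0 and 23 below, against 60 of all 13356 (0.449%). Of the 52, 17 were masking, 13 rescue, 3 synergy, 1 reversal and 18 small. After centring each array on its median, the split among the genes at this p was 21 above 0 and 33 below, so the balance of directions changed with the scaling. All 48 genes other than the called ones had an adjusted p above 0.05 for the contrast, and their contrasts are given as values.

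**Figure D2:**
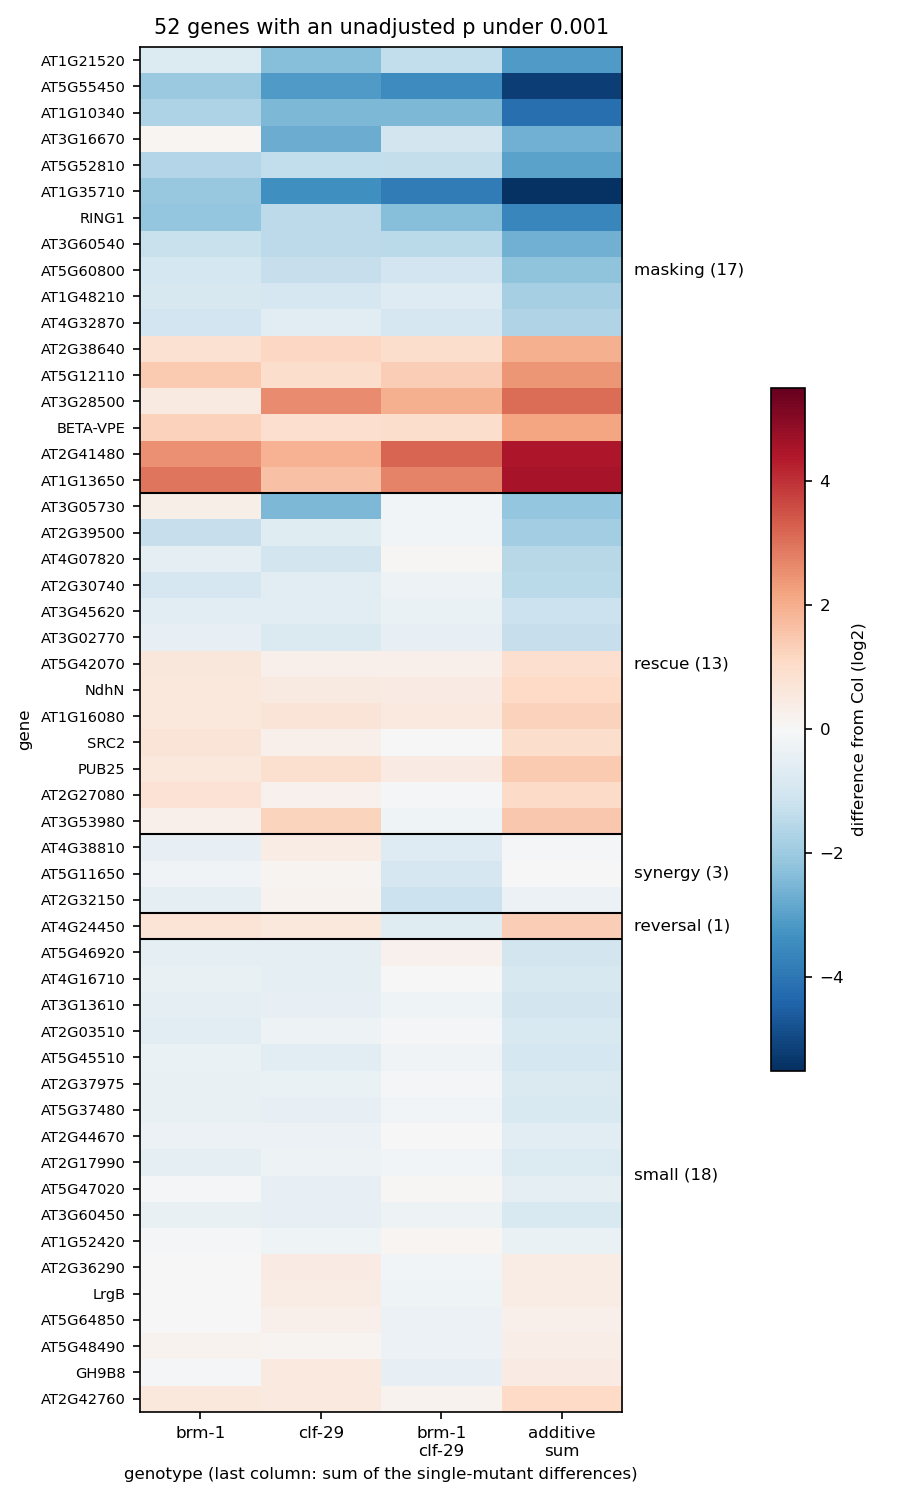
Differences from Col (log2, colour) of both single mutants, the double mutant and the additive sum for the 52 genes with an unadjusted p under 0.001, ordered by class. In the 17 masking genes the double-mutant column is paler than the additive sum, and in the 13 rescue genes it lies within 0.58 of Col.

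In 11 of the masking genes the double mutant lay below Col, and all of these but AT3G16670 lay below Col in both single mutants too. The decreases in both single mutants were larger than 2-fold in 6 of them: AT5G52810, RING1, the ankyrin repeat gene AT1G10340, the lipid transfer protein gene AT5G55450, the receptor-like kinase gene AT1G35710, and AT3G60540, which fell by 1.21 in brm-1 and fell by 1.43 in clf-29.

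AT1G10340 measured 9.10, 9.37 and 9.27 in Col, 7.40, 7.62 and 7.65 in brm-1, 6.89, 6.5 and 6.97 in clf-29, and 6.75, 6.27 and 7.27 in the double mutant. The double mutant overlapped clf-29 and lay under brm-1. With loss of BRM it fell by 1.69 ± 0.19 in the Col background (adjusted p = 0.000209), against a difference of -0.02 ± 0.19 in clf-29 (adjusted p = 0.977). Its contrast was 1.67 ± 0.28 (adjusted p = 0.0778).

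AT5G55450 stood at 10.38, 10.58 and 11.14 in Col and at 8.15, 8.34 and 9.52 in brm-1. In clf-29 it stood at 7.20, 6.64 and 8.86, and in the double mutant at 7.09, 6.74 and 7.86. Col lay above all mutants, brm-1 overlapped clf-29, and the double mutant overlapped clf-29 but not brm-1. The replicate 3 arrays were the highest of each genotype, and the contrast of 1.69 ± 0.32 (adjusted p = 0.123) was 2.23 in replicates 1 and 2 and 0.62 in replicate 3.

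AT1G35710 had the lowest double-mutant mean of these genes relative to Col. It measured 9.72, 9.82 and 10.29 in Col, 7.46, 7.19 and 8.97 in brm-1, 6.49, 5.96 and 7.28 in clf-29, and 5.76, 5.49 and 7.10 in brm-1 clf-29. From Col to the double mutant it fell by 3.83 ± 0.23 (SE, adjusted p = 4.52e-07), while the single differences of -2.07 and -3.37 would have put it at 4.51. That expectation lies under the 4.71 that 95% of the background probe sets do not exceed, and the contrast was 1.61 ± 0.32 (adjusted p = 0.144).

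In AT5G60800 and AT1G48210 the double mutant overlapped both single mutants. AT5G60800, which encodes a heavy-metal-associated domain protein, had means of 8.51 ± 0.14 in Col, 7.57 ± 0.06 in brm-1, 7.26 ± 0.12 in clf-29 and 7.46 ± 0.21 in the double mutant (SD, n = 3). The protein kinase gene AT1G48210 had means of 8.81 ± 0.08, 7.93 ± 0.36, 7.88 ± 0.26 and 8.12 ± 0.37 in the same order. In both genes all mutant arrays lay below all Col arrays, and the contrasts were 1.15 ± 0.21 (adjusted p = 0.0882) and 1.12 ± 0.22 (adjusted p = 0.141).

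In the other 6 masking genes, AT2G41480 among them, the double mutant lay above Col. BETA-VPE, a vacuolar processing enzyme, measured 7.87, 8.00 and 7.65 in Col, 8.98, 9.00 and 9.28 in brm-1, 8.84, 8.77 and 8.66 in clf-29, and 9.13, 8.81 and 8.43 in the double mutant. All mutant arrays lay above Col, and the double mutant overlapped both single mutants. Loss of BRM raised it by 1.25 ± 0.15 in the Col background (adjusted p = 0.000295), and the difference in clf-29 was 0.03 ± 0.15 (adjusted p = 0.956). The contrast was -1.21 ± 0.21 (adjusted p = 0.0882).

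AT5G12110, a gene of the elongation factor 1B type, had means of 8.41 ± 0.20 in Col, 9.83 ± 0.17 in brm-1, 9.39 ± 0.25 in clf-29 and 9.76 ± 0.16 in the double mutant (SD, n = 3), with a contrast of -1.06 ± 0.19 (adjusted p = 0.0882). The double mutant stood at the level of brm-1. AT3G28500, which encodes an acidic ribosomal P protein, differed in that its increase came with loss of CLF. It measured 6.91, 7.10 and 7.82 in Col, 7.72, 7.98 and 7.59 in brm-1, 9.96, 9.91 and 9.75 in clf-29, and 9.12, 9.33 and 9.21 in the double mutant. The double mutant lay between brm-1 and clf-29 with no overlap, and the contrast of -1.14 ± 0.27 (adjusted p = 0.219) was -1.55 in replicates 1 and 2 and -0.31 in replicate 3.

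AT1G13650 had the highest rise of the 52 genes in a single mutant, 2.95 ± 0.30 in brm-1 (SE, adjusted p = 0.000103). Its arrays spread widely, at 7.13, 6.72 and 5.60 in Col, 10.01, 9.91 and 8.39 in brm-1, 9.22, 8.71 and 6.29 in clf-29, and 10.01, 10.42 and 7.23 in the double mutant. Replicate 3 was the lowest of each genotype, so clf-29 overlapped Col while brm-1 and the double mutant did not. The contrast of -1.81 ± 0.43 (adjusted p = 0.219) was about equal in replicates 1 and 2 (-1.78) and replicate 3 (-1.85).

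**Figure D3:**
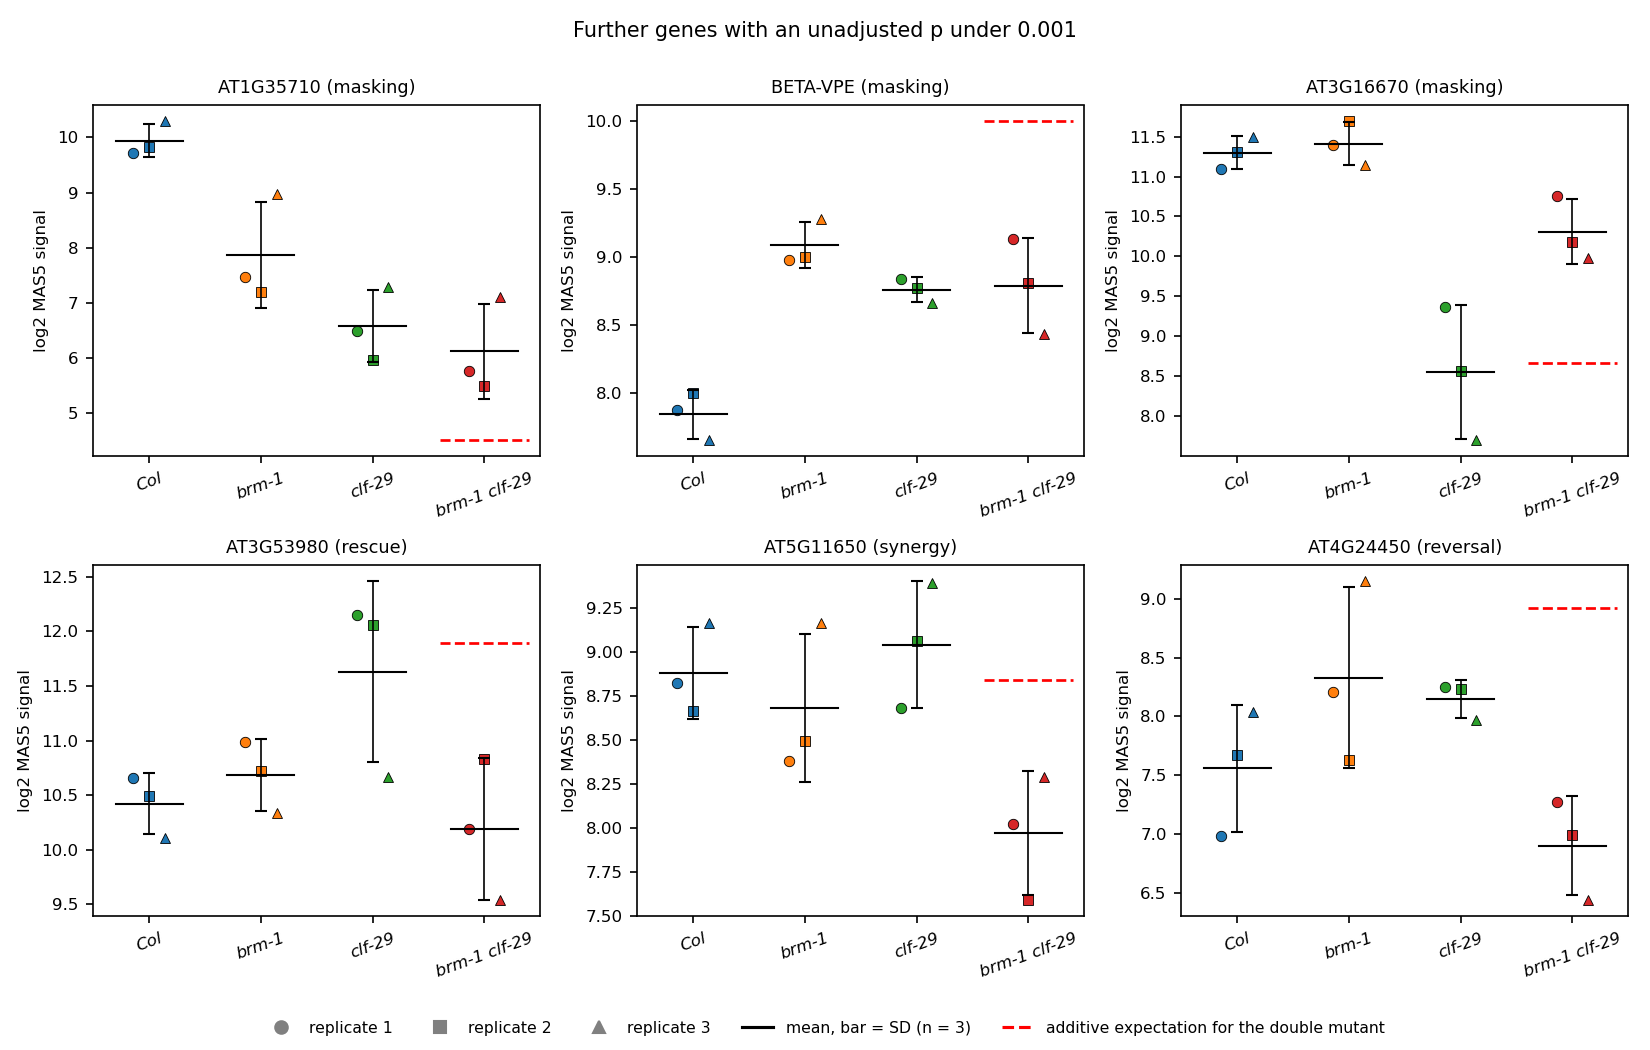
Log2 MAS5 signal of 6 further genes on each of the 12 arrays, with the mean and SD of each genotype (n = 3) and the additive expectation as a dashed line. AT3G16670 and AT3G53980 depart from Col in clf-29, and AT5G11650 is lowest in the double mutant.

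Rescue among the strongest genes ran in both directions. Of the 13 genes, 6 had a contrast above 0 and 7 below. The 1.5-fold limit was passed in clf-29 alone by 7 genes, in brm-1 alone by 5 and in both by 1.

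Beside AT3G05730, AT3G16670 was lower in clf-29 and higher again in the double mutant, but only part of the way, which put it in the masking class at 1.5-fold and in the rescue class at 2-fold. It measured 11.09, 11.31 and 11.50 in Col, 11.39, 11.69 and 11.15 in brm-1, 9.37, 8.57 and 7.70 in clf-29, and 10.76, 10.18 and 9.98 in the double mutant. The clf-29 arrays lay below all others and the double mutant lay between clf-29 and Col. Loss of BRM gave a difference of 0.11 ± 0.27 in the Col background (adjusted p = 0.897) and raised it by 1.76 ± 0.27 in clf-29 (adjusted p = 0.00222), and the contrast was 1.65 ± 0.38 (adjusted p = 0.219).

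AT4G07820, a gene of the pathogenesis-related protein 1 type, had means of 9.12 ± 0.67 in Col, 8.60 ± 0.63 in brm-1, 8.10 ± 0.23 in clf-29 and 9.18 ± 0.40 in the double mutant (SD, n = 3). Its clf-29 arrays did not overlap the double mutant, though they overlapped Col at one array. The contrast was 1.59 ± 0.36 (adjusted p = 0.211).

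AT3G53980, a lipid transfer protein gene, showed the pattern the other way round. It measured 10.66, 10.49 and 10.11 in Col, 10.99, 10.72 and 10.34 in brm-1, 12.15, 12.06 and 10.67 in clf-29, and 10.19, 10.83 and 9.54 in the double mutant. The clf-29 level was high in replicates 1 and 2, and replicate 3 of clf-29 lay within the range of the double mutant. Loss of CLF raised it by 1.21 ± 0.19 in the Col background (adjusted p = 0.00348), and with loss of BRM it fell by 1.44 ± 0.19 in clf-29 (adjusted p = 0.000873). The contrast was -1.70 ± 0.28 (adjusted p = 0.0778).

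In SRC2, named after a cold-regulated soybean gene, the departure was in brm-1. It stood at 12.15, 12.06 and 12.77 in Col, 12.81, 12.80 and 13.44 in brm-1, 12.48, 12.65 and 12.73 in clf-29, and 12.24, 12.24 and 12.60 in the double mutant. The brm-1 arrays lay above the others, if narrowly in replicates 1 and 2, and the double mutant lay within the range of Col. Loss of BRM raised it by 0.69 ± 0.11 in the Col background (adjusted p = 0.00235), and the difference in clf-29 was -0.26 ± 0.11 (adjusted p = 0.242), a contrast of -0.95 ± 0.16 (adjusted p = 0.0778).

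The other 9 rescue genes had contrasts between -1.17 (AT2G27080) and 1.78 (AT2G39500). NdhN, a subunit of the plastid NDH complex, and AT1G16080 were higher in both single mutants by 0.50 to 0.69, and the double mutant stood at 0.44 and 0.54 above Col, just under the limit. For these genes rescue therefore describes a double mutant that was no higher than the single mutants, not a return to the Col level. PUB25, a U-box ubiquitin ligase, was higher by 0.87 ± 0.17 in clf-29 (adjusted p = 0.00916) and differed by 0.47 ± 0.17 in the double mutant (adjusted p = 0.0901).

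Synergy was represented by 3 of the 52 genes, all with their lowest mean in the double mutant. AT5G11650, a hydrolase gene, measured 8.82, 8.66 and 9.16 in Col, 8.38, 8.49 and 9.16 in brm-1, 8.68, 9.06 and 9.39 in clf-29, and 8.02, 7.59 and 8.29 in the double mutant. The 3 double-mutant arrays lay below all 9 others, while Col and the single mutants overlapped. With loss of BRM it fell by 1.08 ± 0.13 in clf-29 (adjusted p = 0.000478), against -0.20 ± 0.13 in the Col background (adjusted p = 0.488). The contrast was -0.87 ± 0.19 (adjusted p = 0.211).

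AT4G38810, a calcium-binding EF-hand gene, was lowered in brm-1 (-0.47 ± 0.11, adjusted p = 0.0181), raised in clf-29 (0.42 ± 0.11, adjusted p = 0.0425) and lowest in the double mutant (-0.72 ± 0.11 from Col, adjusted p = 0.000658). Its double-mutant arrays overlapped brm-1, and the difference of -0.25 ± 0.11 between these genotypes did not pass in limma (adjusted p = 0.291). The contrast of AT4G38810 was -0.66 ± 0.15 (adjusted p = 0.211). From Col to the double mutant AT2G32150 fell by 1.2 ± 0.14 (adjusted p = 0.000125), with all 4 genotypes lowest in replicate 3, and the contrast was -0.88 ± 0.20 (adjusted p = 0.216).

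AT4G24450, a gene of the glucan water dikinase family that phosphorylates starch, was the one reversal. It stood at 6.98, 7.67 and 8.04 in Col, 8.21, 7.63 and 9.15 in brm-1, 8.25, 8.23 and 7.97 in clf-29, and 7.27, 6.99 and 6.44 in the double mutant. The double mutant lay below both single mutants without overlap but overlapped Col. Its contrast of -2.02 ± 0.48 (adjusted p = 0.219) was the lowest of all 6678 genes, and none of the differences from Col passed the threshold.

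The 18 small genes departed from additivity while no mutant differed from Col by 1.5-fold. The intron maturase gene AT5G46920 differed from Col by -0.51 ± 0.16 in each single mutant and by 0.23 ± 0.16 in the double mutant, none of which passed, and its contrast of 1.26 ± 0.23 (adjusted p = 0.0882) was the highest of this class. The double-mutant arrays (8.39, 7.94 and 8.38) lay above those of both single mutants (7.29 to 7.80). LrgB, a plastid glycolate and glycerate transporter, was raised by 0.42 ± 0.08 in clf-29 (adjusted p = 0.00965), and with loss of BRM it fell by 0.65 ± 0.08 in that background (adjusted p = 0.000418). In the Col background the effect of BRM loss was -0.02 ± 0.08 (adjusted p = 0.95), and the contrast was -0.63 ± 0.11 (adjusted p = 0.0882).

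The effects behind the contrast were compared across genes. Loss of BRM changed 629 of the 6678 genes in the Col background and 518 in clf-29, where the shares over all 13356 genes were 5.47% and 4.53%, and 257 were called in both (40.9% and 49.6% of these lists). Loss of CLF changed 506 genes in the Col background and 214 in brm-1, against 4.39% and 1.89% of all genes, with 119 in both (23.5% and 55.6%). The effects of BRM loss in the presence and absence of CLF correlated across genes at r = 0.61, and those of CLF loss at r = 0.56. The members of each pair share no array, but genes are not independent replicates. A gene called in one background and not in the other is not thereby shown to differ between them, and the test of that difference is the contrast, which 4 genes passed.

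**Figure D4:**
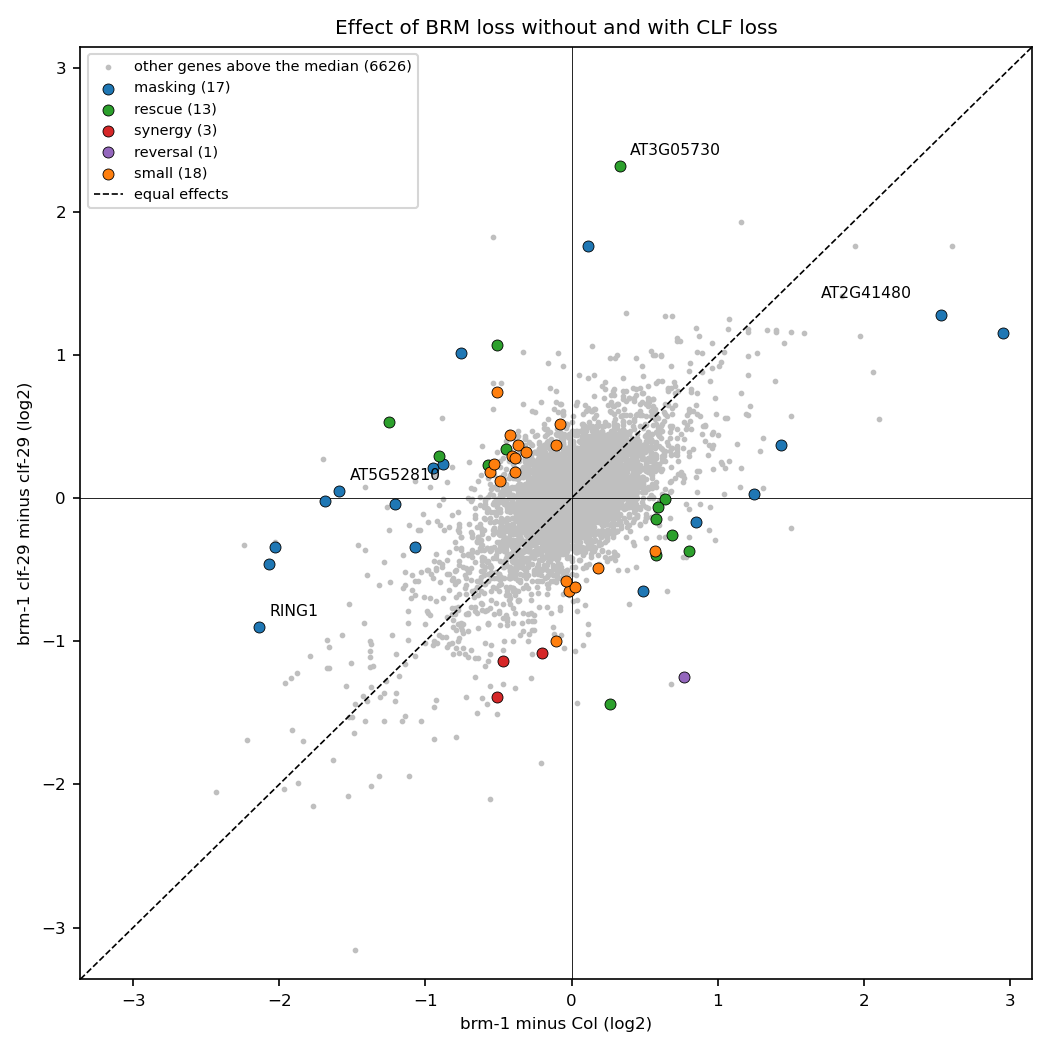
Effect of BRM loss in the Col background (x axis) against its effect in clf-29 (y axis), both in log2, for the 6678 genes above the median, with the 52 strongest genes coloured by class. Additive genes lie on the dashed line, and AT5G52810, RING1, AT2G41480 and AT3G05730 lie off it.

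Since replicate 3 stood apart, the contrast was also examined in arrays that had no part in choosing genes. Within replicates 1 and 2 (8 arrays), 88 genes had an unadjusted p under 0.001, 39 above 0 and 49 below. In replicate 3 the contrast had the same sign in 72 of them (81.8%), against 3980 of all 6678 genes (59.6%), and its median size was 0.51 there and 1.10 in the arrays used for the choice. The 26 genes called within replicates 1 and 2 had the same sign in 17 cases (65.4%), with a median size of 0.53 against 1.55. The 52 strongest genes over all arrays had the same sign in both sets, but both sets were used to choose them.

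**Figure D5:**
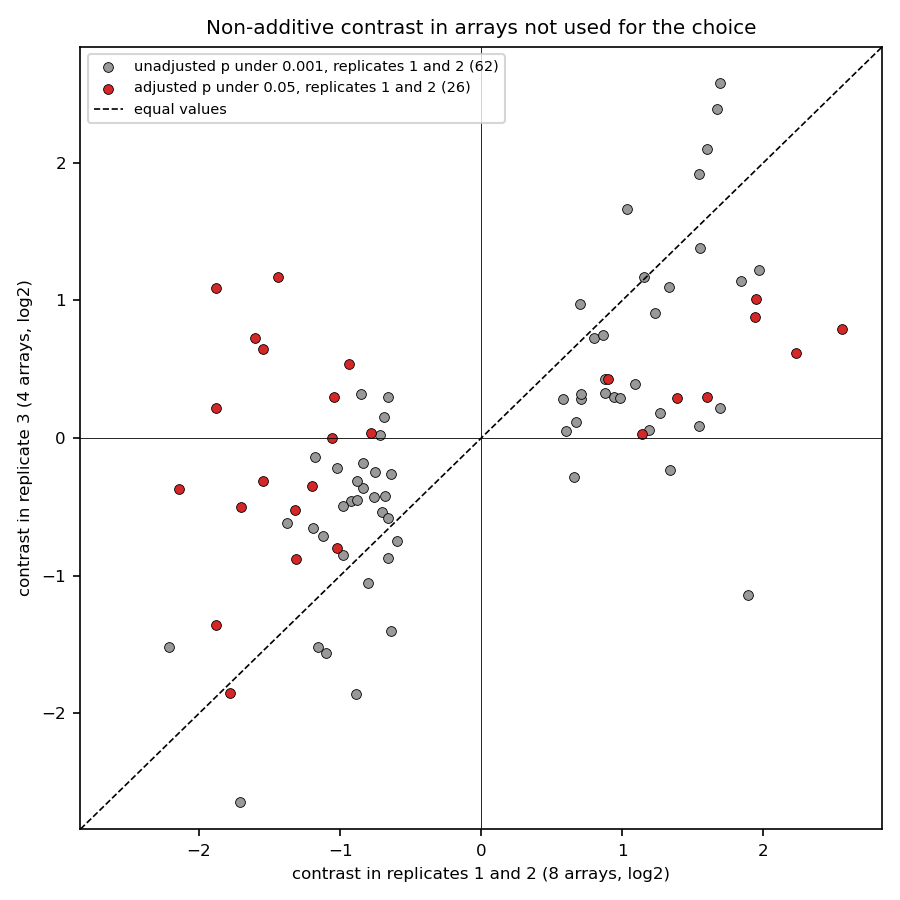
Contrast in replicates 1 and 2 (x axis) against replicate 3 (y axis), in log2, for the 88 genes chosen in replicates 1 and 2, with the 26 called ones in red. Of these, 72 lie in the quadrants of equal sign, most of them nearer to 0 in replicate 3.

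Gene groups were described by counts and medians beside the median of 0.03 over all 6678 genes. Of 21 lists, 17 had a measured member above the median, and in 16 of these no member was called for the contrast. Of the salicylic acid defence list, 5 genes of 31 were included. Their contrasts ranged from -0.44 to 1.72 with a median of 0.42. In 4 the contrast was above 0, beside 54.6% of the 6678 genes, and AT5G52810 was called, beside 0.0299% of all genes.

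The lectin gene AT5G03350, which responds to salicylic acid, had the highest contrast of that list. It measured 10.98, 10.82 and 11.46 in Col, 9.20, 9.18 and 8.80 in brm-1, 8.49, 7.23 and 8.30 in clf-29, and 7.97, 8.27 and 6.86 in the double mutant. Col lay above all mutants and the double mutant overlapped clf-29. With loss of BRM it fell by 2.03 ± 0.35 in the Col background (adjusted p = 0.00358), with -0.31 ± 0.35 in clf-29 (adjusted p = 0.735), and the contrast was 1.72 ± 0.49 (adjusted p = 0.298). The single jasmonate and ethylene defence gene, the defensin PDF1.2b, had the highest contrast of all 6678 genes, 2.36 ± 0.80 (adjusted p = 0.404). Its Col arrays alone ran from 6.99 to 10.38, so the spread within Col was of the size of the contrast.

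The 2 auxin-response genes, which encode GH3 enzymes that conjugate auxin to amino acids, had contrasts of -1.98 ± 0.65 (GH3.3, adjusted p = 0.374) and -0.63 ± 0.25 (WES1, adjusted p = 0.482). Of the CC-type glutaredoxins, 5 of 17 were included, with a median of -0.10. AT2G47880 was the lowest of them at -1.68 ± 0.95 (adjusted p = 0.642), with double-mutant arrays of 1.68, 4.93 and 5.46 against 9.44 to 9.71 in Col. That contrast was -0.68 with an offset of 16 added to the linear signal and -0.57 without the double-mutant array at 1.68. Its double-mutant mean of 4.02 lay under the background value of 4.71, the one such mean among all gene and genotype means described (0.00374%). The 4 cold and drought genes all had contrasts below 0, beside 3028 of the 6678 genes. They ran from -0.49 (COR47, adjusted p = 0.531) to -0.12 with a median of -0.18. In replicates 1 and 2 the sign was not shared, with COR47 at -0.36, LTI30 at 0.06 and COR15B at 0.47. In replicate 3 these 3 genes stood at -0.76, -0.64 and -1.29. The 2 flavonoid and sinapate genes had a median of -0.16 and the 2 iron deficiency genes one of 0.60.

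Of the subunits of the remodeling complex other than BRM, CHB3, CHC1 and BSH had contrasts of -0.34 ± 0.19, 0.08 ± 0.23 and -0.02 ± 0.18, with adjusted p from 0.634 to 0.989. GI, which counts among the circadian clock and the flowering time genes, had a contrast of 0.12 ± 0.16 (adjusted p = 0.866). The leaf photosynthesis markers RCA, PSAN and LHCB4.1 all had contrasts below 0, with a median of -0.32 and adjusted p from 0.512 to 0.720, and the root markers EXPA18 and EXPA7 had contrasts of -0.33 and -0.02. The part of tissue composition in the other contrasts was not tested.

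H3K27me3 lists from the study's ChIP-seq were read in the same way. Of 258 genes with more of the mark in brm-1, 97 were measured and 41 lay above the median, with contrasts from -0.94 to 0.91, a median of 0.17, 27 above 0 and 14 below, beside 54.6% above 0 over all 6678 genes. None was called in limma, where 0.0299% of all genes were, and 4 had an unadjusted p under 0.05, beside 12.1% of the 6678. The 18 whose gain is listed as dependent on CLF had a median of 0.19 and the 23 others one of 0.16. AT3G26590, a MATE-type transporter gene, had the smallest p of the gain list. It stood at 7.96, 8.04 and 8.00 in Col, 6.89, 6.61 and 7.18 in brm-1, 8.13, 7.92 and 7.86 in clf-29, and 7.67, 7.55 and 8.11 in the double mutant, so that brm-1 alone lay apart and the double mutant overlapped Col. With loss of BRM it fell by 1.11 ± 0.17 in the Col background (adjusted p = 0.00152), with -0.19 ± 0.17 in clf-29 (adjusted p = 0.633). Its contrast was 0.91 ± 0.24 (adjusted p = 0.242).

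In some genes the single mutants lay on different sides of Col. The glucosyltransferase gene UGT84A3 fell by 1.77 ± 0.19 in brm-1 (adjusted p = 0.000112) and rose by 1.18 ± 0.19 in clf-29 (adjusted p = 0.00298), and the double mutant at 7.24 ± 0.03 (SD, n = 3) stood near the additive expectation of 7.62. Its contrast was -0.38, with a 95% interval from -0.95 to 0.19. AT2G03550, from the H3K27me3 gain list, fell by 2.22 ± 0.17 in brm-1 (adjusted p = 1.31e-05) and rose by 0.99 ± 0.17 in clf-29 (adjusted p = 0.00635), with a contrast of 0.53 and an interval from 0.00 to 1.06. The flowering gene AGL24, whose mean of 6.88 lay under the limit on level, had its single mutants on different sides of Col as well, with means of 7.44 ± 0.12 in Col, 5.27 ± 0.08 in brm-1, 8.13 ± 0.34 in clf-29 and 6.69 ± 0.12 in the double mutant (SD, n = 3). It fell by 2.17 ± 0.21 in brm-1 (adjusted p = 6.39e-05), while its difference of 0.69 ± 0.21 in clf-29 (adjusted p = 0.0854) and its contrast of 0.73 ± 0.29 (adjusted p = 0.490) did not pass. AT1G54740, which the study followed by qPCR, passed for BRM loss in both backgrounds. It fell by 2.43 ± 0.21 in the Col background (adjusted p = 2.49e-05) and fell by 2.05 ± 0.21 in clf-29 (adjusted p = 9.82e-05), and its contrast was 0.38 with an interval from -0.27 to 1.02.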

How the data were processed

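Deposited was a log2 signal for each probe set on each array, which the authors made with MAS5 and the affy package per the labels (versions not given in the sources used here). On the linear scale the antilog of each column had a 2% trimmed mean of 500.0. Of 22810 probe sets, 13513 had 1 gene in the platform annotation, 503 several and 8794 none given (64 control probe sets among them). Names followed RefSeq's TAIR10.1 table (13436 matched). Of several probe sets of a gene (146 genes) the brightest was used, which left 13356 genes. Background was the 95th percentile (4.71) of 27 bacterial control probe sets, whose median was 2.79. Sequences of genes and promoters were not used here.

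The fit was limma 3.58.1 in R 4.3.3 (lmFit with 4 genotype means and a term for replicate 3, 7 residual degrees of freedom) with eBayes moderation along an intensity trend. Tests were two-sided with Benjamini-Hochberg adjustment over all genes (called at an adjusted p under 0.05). A 1.5-fold limit with no test was the criterion of the study. Groups and replicate numbers came from sample titles. Deviations from genotype means of arrays with the same number correlated at 0.20 to 0.71 over all 18 pairs. Among replicates 1 and 2, pairs with the same number reached 0.20 to 0.44 (12 pairs) and with different numbers 0.16 to 0.49 (12 pairs). Pairing by number was therefore not shown between these arrays. Replicate 3, which stood apart, gave 0.44 to 0.71 (6 pairs). A fit with the replicate number as a block, which treats the number as pairing, is given among the alternatives.

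Named genes were, above the median, the called genes, up to 3 members of each list (called members first, then by smallest p), AGL24 and the qPCR genes. The genes with an unadjusted p under 0.001 were added after their values were seen. The genes and lists were chosen with earlier results of these data known. The alternatives were the term for replicate 3, a replicate block, normalization, an offset, the variance model, array weights, the limits on level and class, every probe set and each array left out.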

Additional observations from a re-analysis of the deposited data

Results flagged for a closer look

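For 4 genes the effect of BRM loss differed between the Col and clf-29 backgrounds by the test of the difference itself, with contrasts of 1.98 (AT3G05730), 1.63 (AT5G52810), 1.24 (RING1) and -1.25 (AT2G41480). When every probe set was tested without the limit on level, these 4 genes did not pass. The 4 probe sets that passed there had no gene named here, with contrasts of 2.55, 2.89, 2.43 and 5.06. All 4 probe sets were highest in Col, and 1 of them also passed with the limit on level. The one with a contrast of 2.89 had means of 10.5 ± 0.54 in Col, 7.76 ± 0.30 in brm-1, 5.99 ± 0.57 in clf-29 and 6.14 ± 0.52 in the double mutant (SD, n = 3), with an adjusted p of 0.00289 in limma. Where the contrast was 5.06, the clf-29 mean of 4.35 lay under the background of 4.71.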

How the results depend on the processing

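The count of 4 calls (3 above 0, 1 below) rested on the settings. It was 0 without the term for replicate 3, with the replicate block, with quantile normalization, after centring on the median, with an offset of 16 and without the trend, where 13, 46, 50, 54, 42 and 12 genes had an unadjusted p under 0.001. It was 5 with robust estimation (2 below 0), 9 with array weights (5 above, 4 below), 7 with the fit over genes above the median only (4 above, 3 below), and 26 with replicates 1 and 2 only (8 above, 18 below, AT5G52810 the one gene in common). Over every probe set there was 1 above the median and 4 without the limit on level (0 below), none with a gene named here, and with all 4 genotype means above the median 3 (0 below).

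Leaving out each array gave 0 to 29 calls, 0 to 16 above 0 and 0 to 13 below. There were 29 without Col replicate 3 and 21 without clf-29 replicate 3, which both kept the 4 genes, 1 without brm-1 replicate 1 (RING1), 1 without clf-29 replicate 1 (AT3G05730) and 0 without any of the other 8. Over 22 settings the contrasts ran from -1.33 to -1.05 for AT2G41480, 1.69 to 2.32 for AT3G05730, 1.5 to 1.94 for AT5G52810 and 1.03 to 1.37 for RING1, and the highest adjusted p from 0.288 to 0.363. None of the 35 uncalled genes named from the lists, as AGL24 or as qPCR genes passed under these settings. Some uncalled genes with an unadjusted p under 0.001 did pass. AT1G10340 and SRC2 passed with robust estimation, with array weights and with the fit over genes above the median only. AT3G53980 passed under the last 2 of these, and further genes of that list passed with single arrays left out. At 2-fold the classes held 167 masking, 73 rescue, 100 synergy, 0 opposed and 0 reversal genes, a double mutant within the limit counting as rescue or small. Reversal held 2 with replicates 1 and 2 only and 5 with quantile normalization. The causes were not tested. The number of arrays limits what small departures can be shown.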
